A study of Mus musculus with 24 samples.

Results

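The oligoadenylate synthetase (OAS) family was followed through skin and bone of irradiated and untreated mice by 6 of its genes, Oas1a, Oas1g, Oas2, Oas3, Oasl1 and Oasl2, out of 55471 genes in the deposited tables. The members were found by gene symbol through the GENCODE M21 annotation, and all 6 had enough counts to be tested in both tissues. The 24 RNA libraries came from female mice 10 weeks old and formed 6 groups of 4: F-PRT, S-PRT and Untreated in bone, and the same in skin. The labels abbreviate the treatments, and F-PRT is taken to mean FLASH proton radiotherapy, given at an ultra-high dose rate, and S-PRT standard proton radiotherapy, given at a conventional one. The series is titled for a mouse sarcoma model, and its question is how the beams differ in their effect on gene expression. The labels name no strain, dose, irradiated field, time after irradiation or tumour status for any group, so the groups are defined here by tissue and treatment alone. Each group holds biological replicates 1 to 4 by its titles, so n = 4, except in fits that leave out libraries. RNA was read from whole tissue, so a fall in the cells of a type and a fall in the RNA of each cell cannot be told apart.

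OAS proteins are interferon-induced enzymes of the antiviral defence. They bind double-stranded RNA and then join ATP into short oligoadenylates called 2-5A, which act as a signal inside the infected cell. Oas1a and Oas1g are small forms of the enzyme, whereas Oas2 and Oas3 are longer forms built from repeated OAS units. Oasl1 and Oasl2 carry ubiquitin-like domains at their C-terminal end. In the mouse Oasl2 keeps synthetase activity, while Oasl1 lacks it and is known to restrain translation of the mRNA of Irf7, a transcription factor that raises interferon production.

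All 6 genes lie on chromosome 5 (GRCm38) in a pair of clusters. Oasl2 (ENSMUSG00000029561, 114896936 to 114912234) and Oasl1 (ENSMUSG00000041827, 114923240 to 114937915) are on the forward strand. Oas2 (ENSMUSG00000032690, 120730333 to 120749853), Oas3 (ENSMUSG00000032661, 120753098 to 120777661), Oas1g (ENSMUSG00000066861, 120876142 to 120887613) and Oas1a (ENSMUSG00000052776, 120896256 to 120907521) are on the reverse strand. Oas2 is overlapped by the gene model Gm43068 and Oasl1 by Gm13822, each on the opposite strand, and the files do not say whether counting used strand. Oas1a and Oas1g are near copies: 97.5% of aligned bases of their longest transcripts were identical. Of all 150-base windows in the Oas1a transcripts, 32.43% also occurred in a transcript of another Oas gene, against 24.10% for Oas1g and 0 for the other 4 members. The division of counts between Oas1a and Oas1g is therefore less certain than their sum, which is given beside the results.

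The promoters of 5 members were listed in RefSeq (GRCm38.p6) and that of Oas2 was not used here. They are shown because interferon acts on these genes through the interferon-stimulated response element (ISRE), searched on both strands as GAAA, any 2 bases and GAAA again, in the 250 bases before the start. In the lines below, written 5′ to 3′ on the strand of the gene, capitals mark each match, and overlapping matches run together. The windows are chr5:120907526-120907775 for Oas1a, chr5:120887614-120887863 for Oas1g and chr5:120777660-120777909 for Oas3, all on the reverse strand.
Oas1a: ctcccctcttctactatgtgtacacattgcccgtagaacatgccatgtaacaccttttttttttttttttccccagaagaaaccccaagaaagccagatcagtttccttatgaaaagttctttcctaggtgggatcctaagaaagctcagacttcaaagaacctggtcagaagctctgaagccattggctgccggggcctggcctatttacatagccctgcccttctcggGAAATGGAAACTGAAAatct
Oas1g: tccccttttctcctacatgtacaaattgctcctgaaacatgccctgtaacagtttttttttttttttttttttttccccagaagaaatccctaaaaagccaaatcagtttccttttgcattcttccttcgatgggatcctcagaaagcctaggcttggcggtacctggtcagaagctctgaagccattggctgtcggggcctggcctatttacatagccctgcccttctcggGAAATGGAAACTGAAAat
Oas3: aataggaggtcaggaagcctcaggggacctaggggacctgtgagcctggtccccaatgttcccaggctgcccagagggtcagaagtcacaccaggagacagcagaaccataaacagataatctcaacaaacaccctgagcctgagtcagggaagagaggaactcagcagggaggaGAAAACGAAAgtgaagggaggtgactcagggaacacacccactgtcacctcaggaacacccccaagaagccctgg
Oas1a and Oas1g held 2 overlapping matches each, within 20 and 18 bases of the start, and the 2 windows were identical at 212 of 244 aligned bases (86.9%). Oas3 held a single match, with its first base 75 bases before the start. The windows of Oasl1 and Oasl2 held none of these letters in this order. Over 32851 promoters of the same length, 2.98% held the motif, so it was present in 3 of 5 members against that share. A second motif, TTCNNNGAA, the core of the gamma-activated site, was found in the Oas1a window and in 7.02% of all promoters.

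Library depth ran from 10.91 to 17.36 M (megacounts) of expected counts in bone and from 16.42 to 22.09 M in skin. Defining markers separated the tissues: the summed level of 5 osteoblast genes was 860 to 1899 CPM in bone libraries and 14.4 to 20.2 CPM in skin libraries, where Ibsp was at 0, and 5 basal keratinocyte genes summed to 5.03 to 70.7 CPM in bone and 7044 to 28894 CPM in skin. Levels are given as CPM, the count of a gene scaled to a common library size, after TMM scaling, a correction for library composition, unless TPM, which also divides by gene length, is named. Of the libraries that stood apart from their group, 5 were left out together in an alternative fit, and results given without the libraries that stood apart leave out those of these 5 that belong to the tissue. Skin S-PRT 4 held 5.79 CPM of 7 summed endothelial genes, against 160 to 173 CPM in the other S-PRT skins, 252 CPM of 5 fibroblast genes against 2886 to 3884 CPM, and 74.0 CPM of 7 macrophage genes against 390 to 458 CPM. Skin Untreated 1 was high in 5 suprabasal keratinocyte genes (16694 CPM, against 6576 to 8815 CPM). Bone F-PRT 2 was high in the same genes (152 CPM, against 0.765 to 45.1 CPM), bone F-PRT 3 in 5 skeletal muscle genes (6250 CPM, against 1168 to 2848 CPM), and bone Untreated 1 was low in 6 neutrophil lineage genes (3122 CPM, against 9658 to 14187 CPM). Other libraries stood apart too and were left out only one at a time. Skin S-PRT 1 and F-PRT 1 were high in the 5 muscle genes (9872 CPM, against 285 to 1925 CPM, and 3310 CPM, against 168 to 526 CPM). Skin Untreated 3 was low in the macrophage genes (95.2 CPM, against 246 to 308 CPM) and the fibroblast genes (663 CPM, against 1230 to 2330 CPM). Bone S-PRT 4 was high in the suprabasal keratinocyte genes (21.9 CPM, against 2.49 to 3.88 CPM).

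Compared per length, Oasl2 was the most abundant member in every group, and the order below it differed between tissues. In bone the mean TPM of Oasl2 was 69.5 ± 10.2 in F-PRT, 35.1 ± 4.65 in S-PRT and 16.9 ± 7.09 in Untreated (SD, n = 4 each). Oas3 came second with 27.8 ± 2.28, 16.4 ± 2.55 and 14.8 ± 5.0 TPM in the same order of groups, and in untreated bone its libraries overlapped those of Oasl2. Oas1a came next in each bone group, at 19.1 ± 1.82 TPM in F-PRT, 10.4 ± 2.67 TPM in S-PRT and 4.13 ± 2.22 TPM in Untreated. The neighbours below it, Oas2, Oasl1 and Oas1g, overlapped in their libraries in each bone group. In skin the second place was held by Oas2, at 2.87 ± 0.972 TPM in F-PRT, 2.75 ± 1.90 TPM in S-PRT and 1.36 ± 0.0913 TPM in Untreated. Oas3 stood last or last but one there, with 0.975 ± 0.549 TPM in F-PRT, 1.27 ± 0.883 TPM in S-PRT and 0.425 ± 0.180 TPM in Untreated, and overlapped its neighbours.

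Summed over the 6 members, bone held 156 ± 18.3 TPM in F-PRT, 84.4 ± 10.7 TPM in S-PRT and 44.9 ± 17.0 TPM in Untreated. The rise is shared in part: on the log2(TPM + 0.5) scale the median of all genes moved over untreated bone by 0.58 after F-PRT and 0.52 after S-PRT. Skin held 15.6 ± 5.13 TPM in F-PRT, 16.4 ± 11.1 TPM in S-PRT and 6.92 ± 0.866 TPM in Untreated. The make-up of that sum differed most in Oas3, whose share in bone was 17.9 ± 1.59% in F-PRT, 19.6 ± 2.94% in S-PRT and 33.3 ± 3.17% in Untreated. Every irradiated bone library, at 15.8 to 23%, lay below every untreated bone library, at 29.2 to 36.3%. In skin the share of Oas3 was 5.91 ± 1.76% in F-PRT, 8.07 ± 1.94% in S-PRT and 6.02 ± 1.92% in Untreated, and the groups overlapped.

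**Figure D1:**
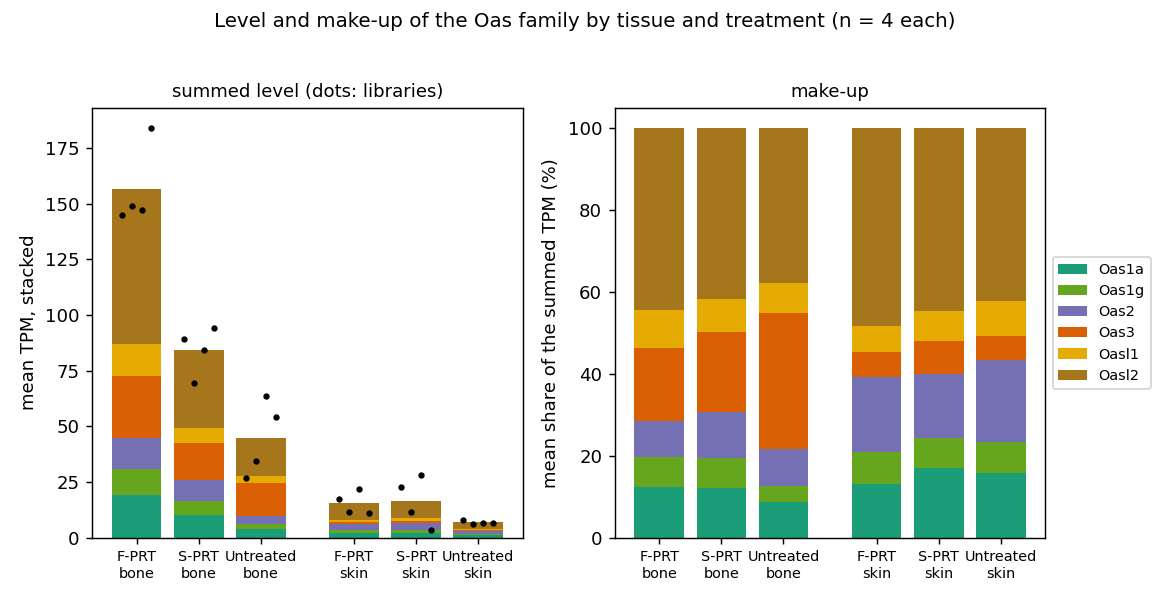
Level and make-up of the 6 Oas genes followed here, without the other Oas1 genes. Left panel, mean TPM of the 6 members stacked by tissue and treatment, with each dot the summed TPM of a library; right, the mean share of each member in that sum. Bone bars fall in the order F-PRT, S-PRT, Untreated, skin bars are far shorter than bone bars, and the Oas3 block takes its widest share, 33.3%, in untreated bone.

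In bone after F-PRT, 5 of the 6 genes rose against untreated bone and Oas3 did not pass the test. Over all 18848 genes tested 15.5% were called higher. The same 5 members had every F-PRT library above every Untreated library, against 15.0% of all genes. Changes are log2 ratios from edgeR's quasi-likelihood test on all 12 bone libraries, with the standard error (SE) and a Benjamini-Hochberg adjusted p over all genes tested, called under 0.05. The median log2 change of the 6 members was 1.49, beside -0.008 over all genes.

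Oas1a, a small synthetase, had 33.3, 37.2, 28.5 and 35.0 CPM in bone F-PRT libraries 1 to 4, against 4.45, 11, 13.9 and 16.1 CPM in Untreated libraries 1 to 4. The lowest F-PRT library was well above the highest untreated bone, and Untreated 1 was the lowest of all. The rise was 2.90-fold (log2 1.54, SE 0.28, adjusted p = 0.00101). Its near copy Oas1g had 11.3, 13.4, 11.7 and 16.9 CPM in F-PRT, against 1.95, 1.52, 4.93 and 4.83 CPM in Untreated. This was the highest fold among the members, 3.92-fold (log2 1.97, SE 0.32, adjusted p = 0.000496), with no overlap and with Untreated 1 and 2 below Untreated 3 and 4. With the counts of the 2 genes summed, the rise was log2 1.66 (SE 0.27, adjusted p = 0.000507).

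Oas2, a longer synthetase, had 43.1, 52.0, 47.0 and 60.1 CPM in F-PRT bone, against 19.1, 19.9, 25.7 and 24.9 CPM in Untreated bone. All F-PRT libraries were higher, a 2.25-fold rise (log2 1.17, SE 0.14, adjusted p = 4.82e-05). Oas3, the longest synthetase, had 122, 118, 99.7 and 118 CPM in F-PRT, against 77.9, 86.2, 110.0 and 108 CPM in Untreated. Here the groups overlapped, because F-PRT 3 lay below Untreated 3 and 4, and the log2 change was 0.25 (SE 0.14, adjusted p = 0.197). This value moved with the scaling: with library size alone it was log2 0.44 (adjusted p = 0.0348) and on log2(TPM + 0.5) with limma 0.95 (adjusted p = 0.00208), but those scalings also moved the median of all genes by 0.19 and 0.58, and relative to that median Oas3 stood at 0.25 and 0.37.

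Oasl1, the form without synthetase activity, had 28.2, 26.9, 21.9 and 27.9 CPM in F-PRT bone, against 5.75, 8.84, 12.6 and 11 CPM in Untreated bone. The groups did not overlap, and the rise was 2.71-fold (log2 1.44, SE 0.23, adjusted p = 0.000397). Oasl2, the active ubiquitin-like form, had 117, 145, 125 and 159 CPM in F-PRT, against 35.5, 33.1, 63.9 and 50.4 CPM in Untreated. It rose 2.98-fold without overlap (log2 1.58, SE 0.20, adjusted p = 5.80e-05). The 5 calls were kept on leaving out any single bone library and without the bone libraries that stood apart, where the log2 changes were 1.14 to 1.89.

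**Figure D2:**
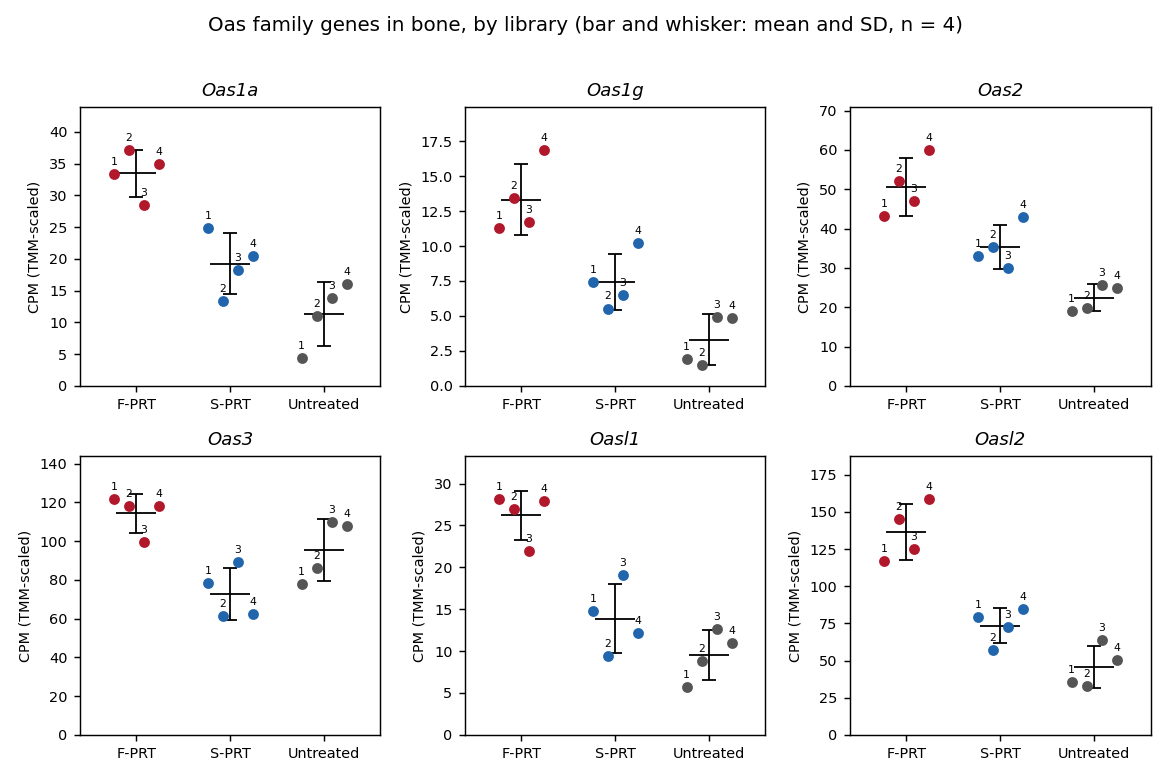
Level of each member in bone, in TMM-scaled CPM, by library (numbered dots) for F-PRT, S-PRT and Untreated; the horizontal bar and whiskers are the mean and SD of 4 libraries. For Oas1a, Oas1g, Oas2, Oasl1 and Oasl2 all F-PRT dots lie above all other dots, and for Oas3 the Untreated dots lie between and among those of the beams.

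S-PRT bone was then set against the same untreated bone, so this comparison and the one before share their untreated libraries. Here 3 of 6 members rose, Oas1g, Oas2 and Oasl2, while 13.3% of all 18848 genes were called higher. Oas1g and Oas2 had no overlap with Untreated, against 12.1% of all genes. Oas1a, Oas3 and Oasl1 did not pass.

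Oas1a had 24.9, 13.4, 18.2 and 20.5 CPM in S-PRT bone, against the Untreated values of 4.45 to 16.1 CPM given above. S-PRT 2 lay within the untreated range, and the log2 change was 0.74 (SE 0.28, adjusted p = 0.0637). Oas1g had 7.42, 5.53, 6.51 and 10.2 CPM, all above the highest untreated library at 4.93 CPM, and rose 2.19-fold (log2 1.13, SE 0.33, adjusted p = 0.0196). The sum of Oas1a and Oas1g rose by log2 0.84 (SE 0.27, adjusted p = 0.0328).

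Oas2 had 33.0, 35.4, 30.0 and 42.9 CPM in S-PRT bone, each above the highest untreated library at 25.7 CPM. It rose 1.57-fold (log2 0.65, SE 0.14, adjusted p = 0.00397). Oas3 had 78.6, 61.3, 89.2 and 62.2 CPM in S-PRT, against 77.9 to 110.0 CPM in Untreated, with 2 S-PRT libraries below all untreated ones. Its log2 change was -0.40 (SE 0.14, adjusted p = 0.0553), and on the TPM scale it turned to 0.20 (adjusted p = 0.423), which is -0.32 relative to the median shift of 0.52 over all genes on that scale.

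Oasl1 had 14.8, 9.40, 19.1 and 12.2 CPM in S-PRT bone, against 5.75 to 12.6 CPM in Untreated, and the groups overlapped (log2 0.52, SE 0.23, adjusted p = 0.109). Oasl2 had 79.1, 57.3, 72.5 and 84.4 CPM in S-PRT, against 33.1 to 63.9 CPM in Untreated. Only S-PRT 2 reached into the untreated range, and the rise was 1.60-fold (log2 0.68, SE 0.19, adjusted p = 0.0186). These calls moved with single libraries. Without S-PRT 4, Oas1g and Oasl2 no longer passed (adjusted p = 0.0671 and 0.0575), and without Untreated 2 Oasl2 did not (0.0581). Without S-PRT 2, Oas1a and Oasl1 passed as well (0.0352 and 0.0362), as did Oas1a without Untreated 4 (0.0329) or Untreated 1 (0.0477). Oas3 passed as lower without S-PRT 3 (log2 -0.51, adjusted p = 0.0219) or Untreated 1 (log2 -0.45, adjusted p = 0.0266). Without the libraries that stood apart only Oas2 still passed as higher (adjusted p = 0.0152), and Oas3 passed as lower (log2 -0.48, adjusted p = 0.0268). By limma voom Oasl2 did not pass (adjusted p = 0.0608) and Oas3 passed as lower (log2 -0.50, adjusted p = 0.0103). DESeq2 called Oas3 lower (0.0433) and Oas1a higher (0.0283). By edgeR with at least 1 CPM in 4 libraries Oas3 passed as lower (0.0470).

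The direct comparison of the beams in bone showed every member higher after F-PRT than after S-PRT, but none passed the adjustment over all genes. The log2 changes ran from 0.52 to 0.92 with a median of 0.82, beside 0.006 over all genes. By edgeR 0 of 6 members were called (lowest adjusted p = 0.611), where 0.00531% of the 18848 genes were called higher, which is 1 gene. At an unadjusted p under 0.05, 6 of 6 members were higher, against 2.12% of all genes. For 6 of 6 members the lowest F-PRT library lay above the highest S-PRT library, against 1.80% of all genes.

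Oas1a stood at 33.5 ± 3.72 CPM in F-PRT bone and 19.2 ± 4.78 CPM in S-PRT bone (SD, n = 4 each), with 28.5 CPM as the lowest F-PRT and 24.9 CPM as the highest S-PRT library (log2 0.80, SE 0.27). Oas1g averaged 13.3 ± 2.54 CPM after F-PRT, beside 7.41 ± 2.00 CPM in S-PRT, and its groups were separated by 11.3 and 10.2 CPM (log2 0.84, SE 0.30). Oas2 averaged 50.5 ± 7.36 CPM in F-PRT and 35.3 ± 5.54 CPM in S-PRT and had the smallest gap, F-PRT 1 at 43.1 CPM over S-PRT 4 at 42.9 CPM (log2 0.52, SE 0.14). None of the 3 synthetases overlapped between the beams.

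Oas3 averaged 114 ± 9.92 CPM in F-PRT and 72.8 ± 13.5 CPM in S-PRT, with 99.7 CPM over 89.2 CPM at the boundary (log2 0.65, SE 0.14, unadjusted p = 0.000549). On the CPM scale untreated bone, at 95.8 ± 16.2 CPM, lay between the beams for this gene, which was so for no other member. In TPM it did not: Oas3 averaged 27.8 TPM in F-PRT, 16.4 TPM in S-PRT and 14.8 TPM in Untreated. Oasl1 averaged 26.2 ± 2.93 CPM in F-PRT and 13.9 ± 4.13 CPM in S-PRT (log2 0.92, SE 0.22, unadjusted p = 0.00117). Oasl2 averaged 137 ± 19.0 CPM in F-PRT and 73.3 ± 11.7 CPM in S-PRT and had the widest boundary, 117 CPM over 84.4 CPM (log2 0.90, SE 0.19, unadjusted p = 0.000408). By p the 6 members ranked between 12 and 201 among the 18848 genes.

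The sign of the difference between beams held for all 6 members on leaving out any bone library, where the log2 changes stayed between 0.42 and 1.11 and none passed. DESeq2 called 21 genes higher in F-PRT over all genes and among them Oas3 (adjusted p = 0.0216) and Oasl2 (0.00995), and edgeR with no filter on low counts called Oasl2 (0.0428). Markers of skin moved with this comparison: 5 suprabasal keratinocyte genes summed to 0.765, 152, 26.8 and 45.1 CPM in F-PRT bone and 3.88, 2.49, 3.38 and 21.9 CPM in S-PRT bone. All 5 were higher at an unadjusted p under 0.05, against 2.12% of all genes. Without bone F-PRT 2, F-PRT 3 and Untreated 1 the members' log2 changes were 0.55 to 1.01. That fit kept only F-PRT 1 and 4 of the F-PRT bones, and every S-PRT bone. It thus still held F-PRT 4, at 45.1 CPM of the suprabasal genes, and S-PRT 4, at 21.9 CPM. The macrophage sum was 1262 to 1462 CPM after F-PRT, beside 782 to 1369 CPM after S-PRT, with S-PRT 2 the lowest, and 0 of the 7 had an unadjusted p under 0.05. Their part in the difference between beams was not tested.

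In bone the markers of several cell types also moved with irradiation itself. Over all genes tested, 15.5% were called higher and 17.2% lower after F-PRT, and 13.3% and 15.2% after S-PRT. All 7 macrophage genes rose after both beams, with a summed level of 1262 to 1462 CPM in F-PRT, 782 to 1369 CPM in S-PRT, beside 318 to 682 CPM in Untreated. All 6 neutrophil lineage genes fell after both beams, to 507 to 658 CPM in F-PRT and 367 to 1030 CPM in S-PRT, against 3122 to 14187 CPM in Untreated. All 5 erythroid genes fell, to 8399 to 13992 CPM in F-PRT and 8591 to 14585 CPM in S-PRT, against 27436 to 37141 CPM in Untreated. Of 5 T cell genes 4 rose after either beam, with sums of 44.8 to 51.4 CPM in F-PRT, 28.5 to 48.5 CPM in S-PRT, beside 14.2 to 30.1 CPM in Untreated. Of 7 endothelial genes 4 rose, with sums of 451 to 531 CPM in F-PRT, 368 to 524 CPM in S-PRT, beside 256 to 319 CPM in Untreated. Of 5 genes of plasmacytoid dendritic cells, known as interferon producers, 3 fell, with sums of 73.5 to 158 CPM in F-PRT, 78.8 to 125 CPM in S-PRT, beside 90.8 to 183 CPM in Untreated. The highest sums after the beams, in F-PRT 3 and S-PRT 1, were in the bones highest in skeletal muscle genes (6250 and 4307 CPM). In Untreated the highest values of these lists lay in different libraries. These sums are not read as a level of those cells alone. Keratinocyte markers, those of skin, moved too: 5 of 5 suprabasal genes rose after F-PRT (median log2 5.52) and 0 of 5 passed after S-PRT (median log2 2.50) by edgeR, with sums of 0.765 to 152 CPM in F-PRT, 2.49 to 21.9 CPM in S-PRT, beside 0.839 to 3.9 CPM in Untreated. Of 5 basal keratinocyte genes 4 rose after F-PRT and 1 after S-PRT, with sums of 9.88 to 70.7 CPM in F-PRT, 7.66 to 23 CPM in S-PRT, beside 5.03 to 11.4 CPM in Untreated. Of 5 genes listed for fibroblasts, Col1a1 among them, 3 rose after F-PRT and 2 after S-PRT, with sums of 15478 to 29657 CPM in F-PRT, 25131 to 29063 CPM in S-PRT, beside 11639 to 20793 CPM in Untreated. The same genes reached at most 3884 CPM in a skin library, and in bone their sum is not read as a level of fibroblasts alone. Of 5 osteoblast genes 1 rose after F-PRT and 2 after S-PRT, and of 5 B cell genes 1 fell after each. A count of 1 in 5 is near the shares over all genes and is not read as a movement of that list. No marker of these lists was at 0 in a bone group, and their part in the rises of the Oas genes was not tested.

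**Figure D3:**
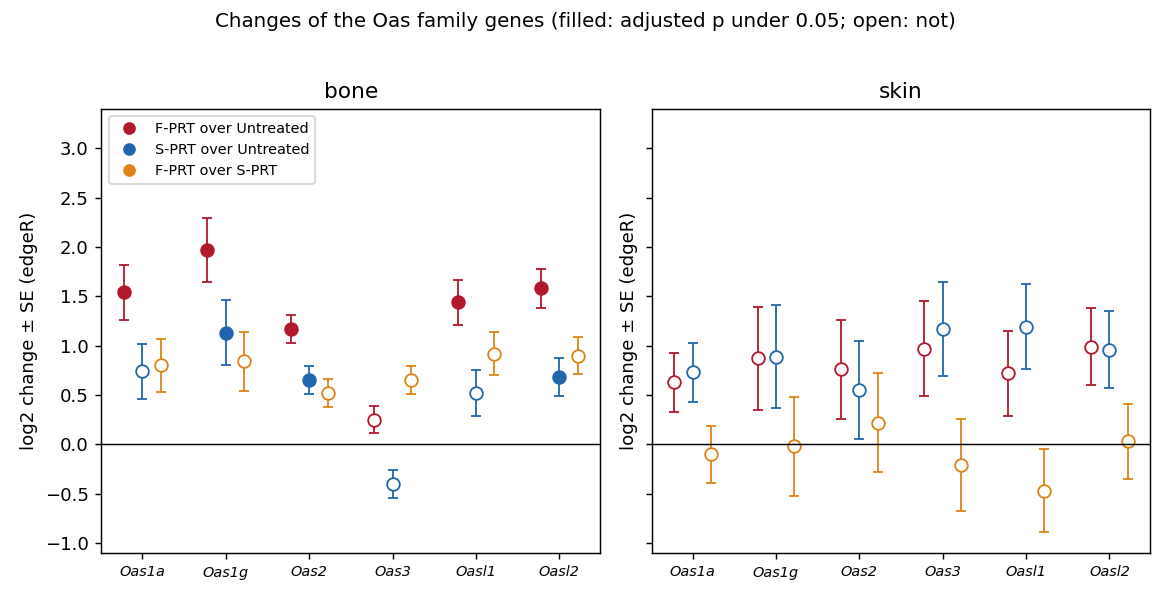
Log2 changes with SE of the 6 members in bone (left) and skin (right) for F-PRT over Untreated, S-PRT over Untreated and F-PRT over S-PRT, from edgeR; filled dots passed an adjusted p of 0.05 and open dots did not. In bone 5 red and 3 blue dots are filled and all orange dots lie above 0; in skin no dot is filled and the orange dots lie on both sides of 0.

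In skin all 6 members had higher means after F-PRT than without irradiation, but 0 passed by edgeR (adjusted p 0.255 to 0.524), where 1.00% of the 19038 genes tested were called higher. The log2 changes ran from 0.63 to 0.99 with a median of 0.82, beside -0.021 over all genes. At an unadjusted p under 0.05, 1 member was higher, Oasl2, against 6.32% of all genes, and the same member alone had no overlap, against 8.02% of all genes. DESeq2 and limma voom also called 0 members.

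Oasl2 had 22.6, 14.7, 25.3 and 16.7 CPM in F-PRT skin, against 10.4, 8.66, 8.83 and 12.2 CPM in Untreated skin. Its log2 change was 0.99 (SE 0.39, adjusted p = 0.255). Skin S-PRT 4 is in neither group of this comparison but enters the filter, the scaling and the shared estimate of the spread. Without that library Oasl2 passed (log2 0.99, adjusted p = 0.0351), as it did on the 8 libraries of the comparison alone (adjusted p = 0.0149). In those fits more of all genes were called higher, 732 of 19405 (3.77%) and 580 of 18323 (3.17%), against 191 of 19038 with every library. Oas1a had 5.54, 3.22, 5.83 and 4.54 CPM in F-PRT, against 3.37, 2.85, 2.54 and 3.59 CPM in Untreated, where F-PRT 2 lay within the untreated range (log2 0.63, SE 0.30). Oas1g, at 1.81, 1.04, 3.21 and 1.36 CPM in F-PRT, against 0.815, 0.823, 1.33 and 1.09 CPM in Untreated, overlapped likewise (log2 0.87, SE 0.52).

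Oas2 had 15.8, 11.7, 19.1 and 10.0 CPM in F-PRT skin, against 6.36, 8.17, 8.22 and 10.6 CPM in Untreated skin, with F-PRT 4 below Untreated 4 (log2 0.76, SE 0.50). Oas3 had 7.19, 2.59, 9.04 and 4.09 CPM in F-PRT, against 3.86, 3.13, 2.42 and 2.31 CPM in Untreated (log2 0.97, SE 0.48). Oasl1 had 2.34, 1.5, 2.66 and 1.59 CPM in F-PRT, against 1.74, 1.04, 1.21 and 0.912 CPM in Untreated (log2 0.72, SE 0.43). In each of the 6 genes F-PRT 1 and 3 were the highest F-PRT libraries. Cell markers also differed between these skins: the macrophage sum was 304 to 434 CPM after F-PRT, beside 95.2 to 308 CPM in Untreated, the endothelial sum 160 to 179 CPM, beside 50.6 to 142 CPM in Untreated, and the fibroblast sum 2483 to 3197 CPM, beside 663 to 2330 CPM in Untreated. By edgeR 0 of these 19 genes passed. Of the other lists, S100a8 of the neutrophil lineage fell after both beams (log2 -2.47 after F-PRT and -2.61 after S-PRT, adjusted p = 0.0207 and 0.0109) and the suprabasal gene Flg rose after F-PRT (log2 1.39, adjusted p = 0.0078), as did the erythroid gene Slc4a1 after S-PRT (log2 1.84, adjusted p = 0.0443), all 3 named after their values were seen. The T cell sum was 16.6 to 21 CPM after F-PRT and 4.74 to 19.6 CPM after S-PRT, beside 14.9 to 36.2 CPM in Untreated, with a negative log2 change in 5 of 5 genes after each beam and 0 passing. The part of these markers in the Oas values was not tested.

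After S-PRT the skin means were again higher for all 6 members, and again 0 passed by edgeR (adjusted p 0.164 to 0.644), where 1.83% of all genes were called higher. The log2 changes ran from 0.55 to 1.19 with a median of 0.92, beside 0.004 over all genes. At an unadjusted p under 0.05, 4 members were higher, Oas1a, Oas3, Oasl1 and Oasl2, against 7.98% of all genes. Groups without overlap were found for 0 members, against 3.81% of all genes. DESeq2 called 0 members, and limma voom with quality weights called Oasl1 (adjusted p = 0.0288).

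S-PRT 4 was the lowest S-PRT skin in every member. Oas2 had 11.7, 13.0 and 22.2 CPM in S-PRT skins 1 to 3 but 1.76 CPM in S-PRT 4, below every untreated skin at 6.36 to 10.6 CPM (log2 0.55, SE 0.50). Oasl2 had 23.4, 14.0 and 33.9 CPM in S-PRT 1 to 3 and 6.38 CPM in S-PRT 4, against 8.66 to 12.2 CPM in Untreated (log2 0.96, SE 0.39). Oas1g had 1.96, 1.79 and 3.33 CPM in S-PRT 1 to 3 and 0.410 CPM in S-PRT 4, against 0.815 to 1.33 CPM in Untreated (log2 0.89, SE 0.52). In these 3 genes S-PRT 1 to 3 lay above every untreated skin and S-PRT 4 below.

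Oas1a had 5.54, 4.15, 7.87 and 2.93 CPM in S-PRT skin, against 2.54 to 3.59 CPM in Untreated skin (log2 0.73, SE 0.30). Oas3 had 9.02, 3.43, 11.3 and 2.69 CPM in S-PRT, against 2.31 to 3.86 CPM in Untreated (log2 1.17, SE 0.48). Oasl1 had 3.84, 2.00, 4.39 and 0.937 CPM in S-PRT, against 0.912 to 1.74 CPM in Untreated (log2 1.19, SE 0.43). Without S-PRT 4, 4 members passed: Oas1a (log2 0.93, adjusted p = 0.0403), Oas2 (0.92, 0.0444), Oasl1 (1.48, 0.0168) and Oasl2 (1.25, 0.0123). Without the libraries that stood apart 4 passed as well, Oas3 (1.60, 0.0384) in place of Oas2. Over all genes the calls were also more numerous: 1256 of 19405 (6.47%) were higher without S-PRT 4 and 2495 of 19258 (13.0%) without the libraries that stood apart, against 348 of 19038 with every library. S-PRT 4 is the library low in endothelial, fibroblast and macrophage genes described above, with 28894 CPM of basal keratinocyte genes against 7608 to 9972 CPM in the other S-PRT skins. The part of its cell make-up in these values was not tested.

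**Figure D4:**
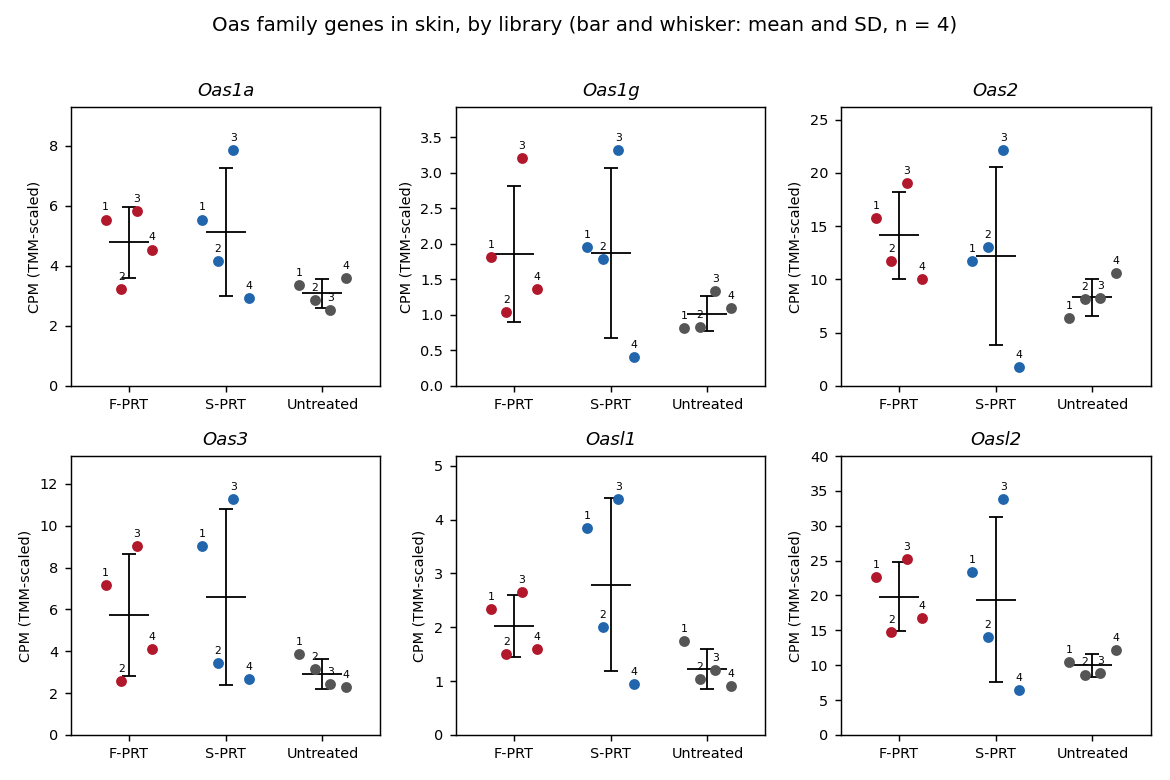
Level of each member in skin, in TMM-scaled CPM, by library (numbered dots) for F-PRT, S-PRT and Untreated; the horizontal bar and whiskers are the mean and SD of 4 libraries. S-PRT 3 is the highest and S-PRT 4 the lowest S-PRT dot in every panel, and the untreated dots lie close together.

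Between the beams in skin 0 of 6 members passed by edgeR (adjusted p 0.999 for each), as 0% of all genes did. At an unadjusted p under 0.05 there were also 0 members, against 2.74% of all genes, and DESeq2 and limma voom called 0. The log2 changes of F-PRT over S-PRT were -0.10 (SE 0.29) for Oas1a, -0.02 (SE 0.50) for Oas1g, 0.22 (SE 0.50) for Oas2, -0.21 (SE 0.47) for Oas3, -0.47 (SE 0.42) for Oasl1 and 0.03 (SE 0.38) for Oasl2. For Oas1a, Oas1g, Oas2, Oas3 and Oasl2 the sign changed on leaving out a skin library, and without S-PRT 4 the values of Oas2 and Oasl2 were -0.15 and -0.26.

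Whether a beam moved the family differently in the 2 tissues was tested as the change in skin minus the change in bone on all 24 libraries. For F-PRT over Untreated 0 of 6 members passed by edgeR, where 10.7% of the 20754 genes did in either direction, with the differences between -1.13 for Oas1g (SE 0.63, adjusted p = 0.286) and 0.69 for Oas3 (SE 0.51, adjusted p = 0.444). At an unadjusted p under 0.05 it was 1 member, Oas1a (-0.94, SE 0.44), against 24.5% of all genes. For S-PRT over Untreated 0 passed, where 9.45% of all genes did. The nearest was Oas3, with 1.55 (SE 0.51, unadjusted p = 0.00583, adjusted p = 0.0569), the 1 member under an unadjusted p of 0.05, against 22.5% of all genes. DESeq2 called it (adjusted p = 0.0287), and edgeR did so without skin S-PRT 4 (1.81, 0.0102), S-PRT 2 (1.76, 0.0292), F-PRT 2 (1.55, 0.0450) or Untreated 1 (1.72, 0.0488).

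For F-PRT over S-PRT the differences of skin minus bone were below 0 for all 6 members, from -1.40 for Oasl1 to -0.31 for Oas2. By edgeR 0 passed (adjusted p = 1 for each), as 0% of all genes did, and at an unadjusted p under 0.05 there were 2 members, Oasl1 and Oas1a, against 3.52% of all genes. DESeq2 and limma voom called 0 members. The higher level after F-PRT than after S-PRT in bone is thus not shown to differ from the skin values.

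Without irradiation the 6 members were lower in skin than in bone, and this difference passed for 6 of 6, where 32.6% of the 20754 genes were called lower. Oas3 differed most, at 3.86, 3.13, 2.42 and 2.31 CPM in untreated skin, against 77.9, 86.2, 110.0 and 108 CPM in untreated bone (log2 -4.92, SE 0.41, adjusted p = 5.03e-10). Oasl1 followed with log2 -2.86 (SE 0.37, adjusted p = 6.48e-07) and Oasl2 with -2.09 (SE 0.34, adjusted p = 1.08e-05). Oas1a stood at -1.79 (SE 0.32), Oas1g at -1.62 (SE 0.47) and Oas2 at -1.33 (SE 0.39). The 6 calls were kept on leaving out any library. This did not extend to the rest of the family. Of 6 other Oas1 genes 4 were tested, and 2 were called higher in untreated skin and 1 lower. Over all genes 32.6% were called in each direction.

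Across the 12 bone libraries 5 members followed each other closely on the log2 CPM scale, with Pearson's r of 0.83 to 0.97 between pairs, while Oas3 had r of 0.27 with Oas2, 0.35 with Oas1g, 0.47 with Oasl2, 0.48 with Oas1a and 0.64 with Oasl1. After subtraction of the group means, the 15 bone pairs ran from 0.06 to 0.94, with a median of 0.65. Within groups Oas3 and Oasl1 had r of 0.94 and Oas1g and Oasl2 0.93, but Oas2 and Oas3 had 0.06. Oas2 and Oasl1, at 0.83 over the 12 libraries, had 0.19 within groups. In skin the 15 pairs lay between 0.60 and 0.95 over the 12 libraries and between 0.63 and 0.94 within groups. These values share libraries, depth and cell make-up and are given as a description.

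The genes whose log2 CPM was most like the mean of the 6 members were named by rank of Pearson's r over the 12 libraries of a tissue. In bone these were Irf7 (r = 0.989), the interferon-inducible factor whose translation Oasl1 restrains in the mouse, Ifit1 (0.976), a binder of foreign RNA, Irgm1 (0.975), an immunity-related GTPase, Dhx58 (0.975), the RNA sensor LGP2, and Dtx3l (0.972), a ubiquitin ligase. In skin they were Ifi208 (0.972), Rtp4 (0.959), Phf11d (0.955), Zbp1 (0.944), a sensor of Z-form nucleic acids, and Ms4a4c (0.943). No gene was on both lists.

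The pathway around the family was read from lists ordered by role. Of 3 genes of the 2-5A pathway, 0 rose and 1 fell in bone after F-PRT, where 17.2% of all genes were called lower, and likewise after S-PRT, where 15.2% were. The gene that fell was Akap7, which has a 2-5A-degrading domain, at 17 ± 0.957 CPM in F-PRT, 15.8 ± 1.26 CPM in S-PRT and 22.4 ± 5.24 CPM in Untreated (SD, n = 4 each). It fell by 0.39 on the log2 scale after F-PRT (adjusted p = 0.0459) and by 0.50 after S-PRT (adjusted p = 0.0169), and without the bone libraries that stood apart it no longer passed after F-PRT. By limma voom Akap7 did not pass after either beam. Abce1, an ATP-binding protein, and Pde12, which degrades 2-5A, did not pass after either beam (Abce1 0.28 and 0.26, Pde12 -0.03 and -0.03), although DESeq2 and limma voom called Abce1 higher after F-PRT. In skin 0 of the 3 passed by edgeR, DESeq2 or limma voom in any comparison, and at an unadjusted p under 0.05 there was 1, after S-PRT.

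Among 6 other Oas1 genes, 2 were tested in bone and 4 in skin, and 0 passed for irradiation in either tissue. Oas1f had 0 counts in bone S-PRT and Untreated libraries and 14 counts in all F-PRT bones, 9 of them in a single library, against 2638, 3116 and 2675 counts summed over the F-PRT, S-PRT and Untreated skins. Per length it was at 18.4 ± 2.28 TPM in F-PRT skin, 22.7 ± 5.68 TPM in S-PRT skin and 18.4 ± 10.8 TPM in Untreated skin, above Oasl2, the most abundant of the 6 members there, at 2.92 ± 0.368 TPM in Untreated. Oas1b was at 4.11 ± 0.431 TPM in F-PRT bone, 3.24 ± 0.443 TPM in S-PRT bone and 2.56 ± 0.428 TPM in Untreated bone, and on the CPM scale its log2 changes were -0.01 and -0.28 (neither passed).

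The interferon ligands themselves were near or below detection. Of 19 genes for type I and type III interferons, 6 had 0 counts in all 24 libraries, and 18 had at most 10 counts in every library. Ifnb1, the beta interferon, had 1 count in all of untreated bone and 0 in the other groups. Ifnk, an interferon of the epidermis, was the 1 ligand tested, with 0.39 ± 0.251 CPM in F-PRT bone and 0.695 ± 0.116 CPM in Untreated bone, and it did not pass in any comparison.

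Of 8 genes of the interferon receptors and their signalling, 2 rose and 1 fell in bone after F-PRT, where 15.5% of all genes were called higher and 17.2% lower. Stat2, a subunit of the complex that binds the ISRE, averaged 79.6 ± 13.2 CPM after F-PRT, beside 43.4 ± 0.875 CPM in Untreated bone (log2 0.87, SE 0.11, adjusted p = 6.73e-05). Il10rb, a chain of the type III receptor, rose by log2 0.43 (adjusted p = 0.0441), while the other chain, Ifnlr1, fell to 1.47 ± 0.263 CPM in F-PRT and 1.5 ± 0.513 CPM in S-PRT, against 19.6 ± 3.96 CPM in Untreated (log2 -3.73 and -3.70). After S-PRT Stat2 rose (log2 0.36, adjusted p = 0.0274), Ifnlr1 fell and 6 did not pass, where 13.3% of all genes were called higher and 15.2% lower. Without the bone libraries that stood apart Il10rb and Irf1 no longer passed after F-PRT, nor Stat2 after S-PRT. Of 4 interferon-inducing factors, Irf7 (log2 1.49, adjusted p = 0.000200) and Irf1 (0.53, 0.0242) rose after F-PRT. After S-PRT 0 of the 4 passed by edgeR or limma voom, while DESeq2 called Irf7 higher.

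Of 8 genes listed around the sensing of double-stranded RNA, not all of them sensors, 6 rose in bone after F-PRT, where 15.5% of all genes were called higher. Tlr3 had the highest value, at 32.1 ± 5.78 CPM after F-PRT, beside 8.49 ± 0.752 CPM in Untreated (log2 1.92, SE 0.13, adjusted p = 6.01e-07), and Zbp1 stood at log2 1.91 (SE 0.29, adjusted p = 0.000239). Dhx58 (1.09), Ddx58 (0.84), Ifih1 (0.80) and Eif2ak2 (0.57) also rose, and Mavs and Adar did not pass by edgeR, although DESeq2 and limma voom called Adar higher. After S-PRT 4 rose, where 13.3% of all genes were called higher. These were Tlr3 (1.5), Zbp1 (1.28), Ddx58 (0.41) and Ifih1 (0.34), of which Ddx58 did not pass by limma voom or without the bone libraries that stood apart.

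Of 15 other interferon-stimulated effectors, 11 rose after F-PRT in bone and 1 fell, where 15.5% of all genes were called higher and 17.2% lower. Their median log2 change was 1.23, beside -0.008 over all genes. The highest were Ifit3 (2.44), Ifi44 (2.23), Rtp4 (1.88), Ifit2 (1.64) and Mx1 (1.61), followed by Bst2 (1.55), Ifit1 (1.52), Xaf1 (1.23), Usp18 (1.14), Parp14 (1.05) and Ifi35 (0.49). The gene that fell was Rsad2, the antiviral enzyme viperin, at 190 ± 32.9 CPM in F-PRT, 146 ± 33.8 CPM in S-PRT and 325 ± 41.7 CPM in Untreated (log2 -0.78, adjusted p = 0.00324, for F-PRT and -1.15, adjusted p = 0.000249, for S-PRT). Its genomic neighbour Cmpk2, a nucleotide kinase, fell after S-PRT (-0.47, adjusted p = 0.0294) and stood at -0.02 after F-PRT. After S-PRT 8 of the 15 rose and 2 fell by edgeR, where 13.3% of all genes were called higher and 15.2% lower. Isg15 was also called lower after S-PRT by limma voom and without the bone libraries that stood apart. In those fits 17.7% and 15.1% of all genes were called lower. The median of the 15 was 0.59, beside -0.006 over all genes. The 8 ran from Ifit3 (1.35) and Ifi44 (1.15) through Rtp4 (0.97), Mx1 (0.91), Bst2 (0.87), Xaf1 (0.66) and Ifit2 (0.64) to Parp14 (0.59).

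Between the beams in bone 0 genes of these lists passed by edgeR, as 0 members did. Of the 15 effectors 15 had positive log2 changes for F-PRT over S-PRT, with a median of 0.70, beside 0.82 for the Oas genes. Of these effectors 14 had an unadjusted p under 0.05, where 2.12% of all genes were higher at that p. The 2 of smallest p were Ifi44 (1.08, SE 0.16, adjusted p = 0.123) and Ifit2 (1.00, SE 0.16, adjusted p = 0.123). Of the 8 genes of the sensor list 7 were positive with an unadjusted p under 0.05, led by Ifih1 (0.46, SE 0.09, adjusted p = 0.611) and Eif2ak2 (0.42, SE 0.09, adjusted p = 0.682). Irf7 had 140 ± 15.7 CPM after F-PRT, beside 72.2 ± 16.9 CPM in S-PRT (log2 0.95, SE 0.21, adjusted p = 0.680), and Stat2 at 0.52 (SE 0.11, adjusted p = 0.611). The 3 genes of the 2-5A pathway had changes of at most 0.11, with 0 under an unadjusted p of 0.05. DESeq2 called 6 effectors (Mx1, Ifi44, Usp18, Ifit1, Ifit2 and Ifit3), 2 sensors (Eif2ak2 and Ifih1), Irf7 and Stat2, and limma voom called 0.

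**Figure D5:**
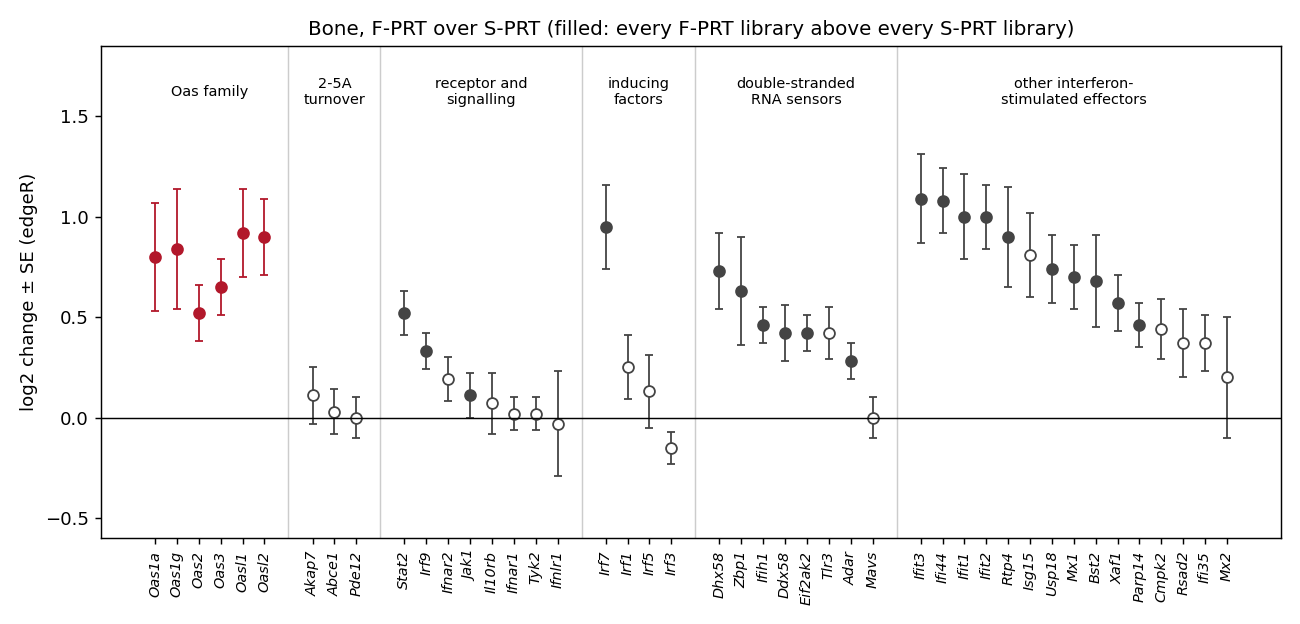
Log2 changes with SE for F-PRT over S-PRT in bone, for the Oas family (red) and the genes of 5 pathway lists (grey); filled dots are genes whose every F-PRT library lay above every S-PRT library. The Oas genes, Irf7, 7 of 8 genes of the sensor list and all 15 effectors lie above 0, and the 3 genes of the 2-5A pathway (labelled 2-5A turnover) lie near 0.

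In skin 0 genes of these lists passed by edgeR in any of the 3 comparisons. The effectors had positive log2 changes in 14 of 15 genes after either beam, with medians of 0.84 after F-PRT and 0.78 after S-PRT. An unadjusted p under 0.05 was found for 9 of 15 each time. Over all genes 6.32% were higher at that p after F-PRT and 7.98% after S-PRT. Ifit2 stood at 8.72 ± 2.33 CPM in F-PRT skin, 9.64 ± 5.35 CPM in S-PRT skin and 3.19 ± 0.600 CPM in Untreated skin (log2 1.45, adjusted p = 0.107, and 1.60, adjusted p = 0.0522). Ifit3 stood at 8.10 ± 0.591, 7.73 ± 4.03 and 3.27 ± 0.860 CPM in the same groups (log2 1.31, adjusted p = 0.0870, and 1.24, adjusted p = 0.0760). DESeq2 called 3 effectors after F-PRT and 4 after S-PRT, Ifit1, Ifit2 and Ifit3 each time, and limma voom called 6 and 7. Of all genes DESeq2 called 1.97% and 3.46% higher, and limma voom 6.90% and 8.28%. Without skin S-PRT 4 and Untreated 1, edgeR called 8 effectors after F-PRT and 10 after S-PRT, in a fit that called 1580 (8.20%) and 2495 (13.0%) of 19258 genes higher. Between the beams the median of the effectors was 0.05, with 0 of 15 under an unadjusted p of 0.05.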

How the data were processed

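RNA was sequenced by the authors from skin and bone as polyA-selected libraries, per the labels with paired reads of 150 bases. FastQC, cutadapt, STAR and RSEM are listed, with the build GRCm38, in the submitters' processing notes; no versions or settings are stated there. Per the file headers, the authors deposited an expected count, a TPM and an FPKM for each of 55471 genes in every library. FPKM was not used. The expected counts were rounded to whole numbers, and the deposited TPM entered levels and 1 alternative. GENCODE M21 supplied symbols and coordinates for 99.57% of the gene identifiers.

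The test was that of edgeR 4.0.16 under R 4.3.3 (quasi-likelihood F test, TMM scaling, filterByExpr, Benjamini-Hochberg over all genes tested, threshold 0.05), on 12 libraries within a tissue and on all 24 for differences between tissues. Limma is version 3.58.1 and DESeq2 1.42.0. CPM carries TMM scaling, and log2 CPM a prior count of 2. A gene was said not to overlap when the lowest library of a group lay above the highest of the other. The workflow was tested on simulated data.

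The 6 members, the gene lists and the marker lists were chosen with earlier results of these data known, so their counts are descriptions and no list was tested. All 6 members were named in each comparison; from each pathway list the genes past the test, otherwise the 2 of smallest p, were named, and further list genes, Oas1f and Oas1b after their values were seen. Counting intervals are not given, since replicate spread exceeds counting error: the chi-square per degree of freedom between replicates was 9.54 to 210. Alternatives were DESeq2, weighted limma voom, RLE scaling, testing all genes with counts, at least 1 CPM in 4 libraries, a replicate block, the 8 libraries compared, Oas1a and Oas1g summed, leaving out each library, and leaving out 5 libraries that stood apart; library size alone and log2(TPM + 0.5) with limma were added after seeing the data, as were the list counts under DESeq2, limma voom and without the 5 libraries. Some genes of the pathway lists are not reported here. No column was left out for want of a sample.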

Additional observations from a re-analysis of the deposited data

How the results depend on the processing

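Over the settings run, the 5 calls in bone after F-PRT and the 6 in untreated skin over bone were made under every one, as were the positive signs of all 6 members for F-PRT over S-PRT in bone. In bone after S-PRT 3 members were called, against 5 with DESeq2 (Oas3 among them, as lower), library size alone or log2(TPM + 0.5), and 1 to 5 on leaving out a library. With voom it was also 3, but Oas3 was called, as lower, in place of Oasl2. With at least 1 CPM in 4 libraries Oas3 was added as lower, and with no filter Oas1a as higher. Oas3 turned to 0.20 on the TPM scale. For F-PRT over S-PRT in bone the count was 0, against 1 with no filter and 2 with DESeq2. In skin after F-PRT it was 0, against 1 without the 5 libraries that stood apart or on the 8 libraries compared, and 0 to 1 on leaving out a library. In skin after S-PRT it was 0, against 1 with limma voom, 4 without those 5 libraries and 0 to 4 on leaving out a library. For skin minus bone it was 3 on the TPM scale for F-PRT over Untreated, where Oas3 was -0.34. For S-PRT over Untreated it was 1 with DESeq2 or voom, 2 without the 5 libraries and 0 to 1 on leaving out a library. Signs also turned. For F-PRT over S-PRT in skin the values were Oas2 -0.05 and Oasl2 -0.10 with voom, Oas2 -0.15 and Oasl2 -0.26 without the 5 libraries, and Oas1g 0.03 with the replicate block, 0.01 with library size alone and 0.08 on the TPM scale. Leaving out a skin library gave -0.29 to 0.18 for Oas1a, -0.42 to 0.40 for Oas1g, -0.15 to 0.68 for Oas2, -0.52 to 0.18 for Oas3 and -0.26 to 0.44 for Oasl2. For skin minus bone after S-PRT, voom gave Oas1a 0.30, Oas1g 0.01 and Oas2 0.11. Without the 5 libraries they were 0.47, 0.16 and 0.21, and the TPM scale gave Oasl1 -0.51 and Oasl2 -0.22. Leaving out a library gave -0.31 to 0.22 for Oas1a, -0.68 to 0.08 for Oas1g, -0.57 to 0.25 for Oas2 and -0.14 to 0.56 for Oasl2, and for F-PRT over S-PRT -0.68 to 0.14 for Oas2. The cause was not tested. The replicate numbers did not pair the libraries by the rule that every r exceed 0.1, met in 10 of 24 pairs within a tissue and 3 of 12 between tissues, though skin F-PRT and S-PRT came near it (0.37, 0.07, 0.19 and 0.13), and the replicate block changed no member's call. Over all genes the tool moved the counts: in skin after F-PRT edgeR called 191 higher and 264 lower, DESeq2 376 and 564, and voom 1314 and 1309. After S-PRT edgeR called 348 and 479, DESeq2 659 and 828, and voom 1577 and 1525. For F-PRT over S-PRT in bone edgeR called 1 gene, 11 with no filter, and DESeq2 21. With 4 libraries a group, smaller changes could be missed in skin.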
